A study of Mus musculus with 18 samples.

Results

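The cell proliferation genes are 38 genes whose transcripts are made mostly in dividing cells, taken as the rows of the expression table with these gene names. All 38 were found among 32675 genes, and all 38 were among the 20251 genes that passed the filter on low counts. They were taken by name with no threshold on a measured value, but were chosen with earlier results of these data known. By role they comprised 15 genes of DNA replication and S phase, 13 kinases, cyclins, checkpoint genes and regulators of G2 and mitosis, and 10 genes of the mitotic chromosome, spindle and cytokinesis.

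Bulk RNA sequencing was performed on right kidneys of 18 male wild-type C57BL/6 mice, labelled as 6 weeks old, with 6 mice in each of 3 groups. By the study's methods 6 weeks was the age when mice were obtained, before 7 days of acclimatization and 14 days of the procedure. The kidneys were therefore taken at a later age. Ctrl mice were handled daily and never defeated. PBS and FLX mice underwent chronic social defeat stress (CSDS), in which an aggressive CD-1 mouse attacked them for 10 min a day over 14 days, and received a daily intraperitoneal injection of phosphate-buffered saline or of fluoxetine at 10 mg per kg, a serotonin reuptake inhibitor. Ctrl mice were not described as injected, so that injection and defeat cannot be told apart in PBS versus Ctrl, and no undefeated mouse received FLX. The study left out 1 PBS mouse for excessive expression of inflammatory factors without naming it. It was taken to be PBS replicate 6, which had 22.1 FPKM of the neutrophil gene S100a8 and 49.2 FPKM of the injury gene Lcn2, against at most 7.65 and 6.37 in the other 17 mice. Values below rest on those 17 mice (6 Ctrl, 5 PBS, 6 FLX) unless all 18 are named.

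Total counts were 73000203 to 78650116 in Ctrl, 72373418 to 78711121 in PBS and 48928823 to 79061296 in FLX, where replicates 3 to 6 lay at 48928823 to 52073640. Members with few counts therefore have wider counting error in those 4 mice. Tubule, podocyte and endothelial markers were detected in every mouse, from 2.68 FPKM of Kdr to 1260 FPKM of Umod. FPKM (fragments scaled to exon length and to library size) is a level per length and allows genes to be compared.

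A cell entering the division cycle first licenses its replication origins and copies its DNA in S phase, and then condenses and separates the chromosomes in mitosis. Transcription of S phase genes rises with E2F factors once the D cyclins and their kinases release them from the pocket proteins. Transcription of G2 and mitotic genes peaks later, under the MuvB complex with B-Myb and Foxm1, through the cell cycle genes homology region (CHR) of their promoters. The DREAM complex of p130, E2F4 and MuvB keeps both classes low in resting cells. CDK inhibitors such as Cdkn1a (p21), a p53 target, oppose entry into the cycle. Most cells of the adult kidney are out of the cycle, and tubule cells re-enter it after injury.

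Promoters are shown for 6 members because the results below turn on them and because they show the sequence classes just described. RefSeq windows (GRCm38.p6, 250 bases before and 50 bases from the annotated transcript start, 32851 windows) were matched for 31 of the 38 members, the one nearest to the deposited start being used for the 3 members with more than 1. Ccna2, Ccne2, Mcm4, Aurkb, Kif20a, Tpx2 and Foxm1 had no match. Each line gives the 150 bases before the RefSeq start, 5′ to 3′ on the gene's strand. Capitals mark the CHR letters TTTGAA, the CHR variant with the letters TTTAAA (its own reverse complement), the CCAAT box and the E2F letters, which were TTTCCCGC, its variant TTTGGCGC, its variant TTTCGCGC and its variant TTTGCCGC. All were read on both strands. The stretches lie at chr10:69352913-69353062 (minus strand), chr7:80294301-80294450 (plus), chr4:118437344-118437493 (minus), chr12:24708104-24708253 (plus), chr8:122567865-122568014 (plus) and chr3:135212413-135212562 (plus). The RefSeq starts lay 0 to 26 bases downstream of the starts in the deposited table.
Cdk1: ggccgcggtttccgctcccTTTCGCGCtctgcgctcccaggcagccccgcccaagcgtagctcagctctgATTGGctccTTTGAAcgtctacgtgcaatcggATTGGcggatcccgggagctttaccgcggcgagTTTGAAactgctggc
Prc1: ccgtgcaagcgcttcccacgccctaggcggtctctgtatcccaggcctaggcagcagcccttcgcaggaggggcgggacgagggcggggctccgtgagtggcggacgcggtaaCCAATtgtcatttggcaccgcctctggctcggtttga
Cdc20: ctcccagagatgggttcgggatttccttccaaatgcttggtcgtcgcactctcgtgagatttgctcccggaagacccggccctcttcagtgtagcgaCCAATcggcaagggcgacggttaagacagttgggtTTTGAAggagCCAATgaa
Rrm2: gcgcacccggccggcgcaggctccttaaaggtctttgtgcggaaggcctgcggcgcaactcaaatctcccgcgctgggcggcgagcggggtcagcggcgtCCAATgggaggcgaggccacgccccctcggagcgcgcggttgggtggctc
Cdt1: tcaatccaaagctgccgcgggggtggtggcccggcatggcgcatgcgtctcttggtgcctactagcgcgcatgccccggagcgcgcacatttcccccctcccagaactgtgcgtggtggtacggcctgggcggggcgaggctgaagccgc
Cenpe: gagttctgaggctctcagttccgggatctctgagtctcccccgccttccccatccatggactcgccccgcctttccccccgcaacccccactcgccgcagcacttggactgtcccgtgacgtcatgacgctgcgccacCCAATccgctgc

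Cdk1 held 2 CHR matches, 2 CCAAT boxes and 1 E2F match in this stretch, and Cdc20 held 1 CHR match and 2 CCAAT boxes. Prc1, Rrm2 and Cenpe each held 1 CCAAT box there, and Cdt1 held none of these letters there. A TTTGAA of Prc1 runs across its transcript start and stays in lower case. From the start on, past the printed stretch, Rrm2 held TTTAAA at base 0 and Cenpe at base 14. Cdt1 held an E2F match at base 32, with the start counted as 0. Over the whole 300-base windows, either CHR word was present in 9 of 10 G2/M regulators and 7 of 8 mitotic genes, against 5 of 13 replication genes and 27.6% of all windows. The E2F words were present in 6 of 13 replication genes, in 1 of 10 G2/M regulators and in 0 of 8 mitotic genes, against 2.26% of all windows. CCAAT was present in 25 of 31 members and in 37.4% of all windows. Overlapping E2F matches were counted once a window. A match is a description of letters and no evidence of a bound factor.

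The proliferation genes were transcribed at low levels in every group. Pcna, the sliding clamp of replication that also serves DNA repair, stood highest at 13.2 to 18 FPKM over 18 mice (median 15.9). The helicase subunits Mcm6 (median 4.37 FPKM) and Mcm7 (4.24 FPKM) and thymidylate synthase Tyms (2.25 FPKM) followed. Of the 15 replication genes, 8 had a median above 1 FPKM. None of the 23 G2/M and mitotic genes did: the mitotic activator Cdc20 led them at 0.755 FPKM. Cenpf and Bub1, of the kinetochore and its checkpoint, were lowest at 0.0365 and 0.0569 FPKM, and Bub1 was listed at 0 in FLX replicates 4 and 5. By role, the levels had a median over members of 1.04 FPKM for replication genes, 0.279 FPKM for G2/M regulators and 0.196 FPKM for mitotic genes.

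**Figure D1:**
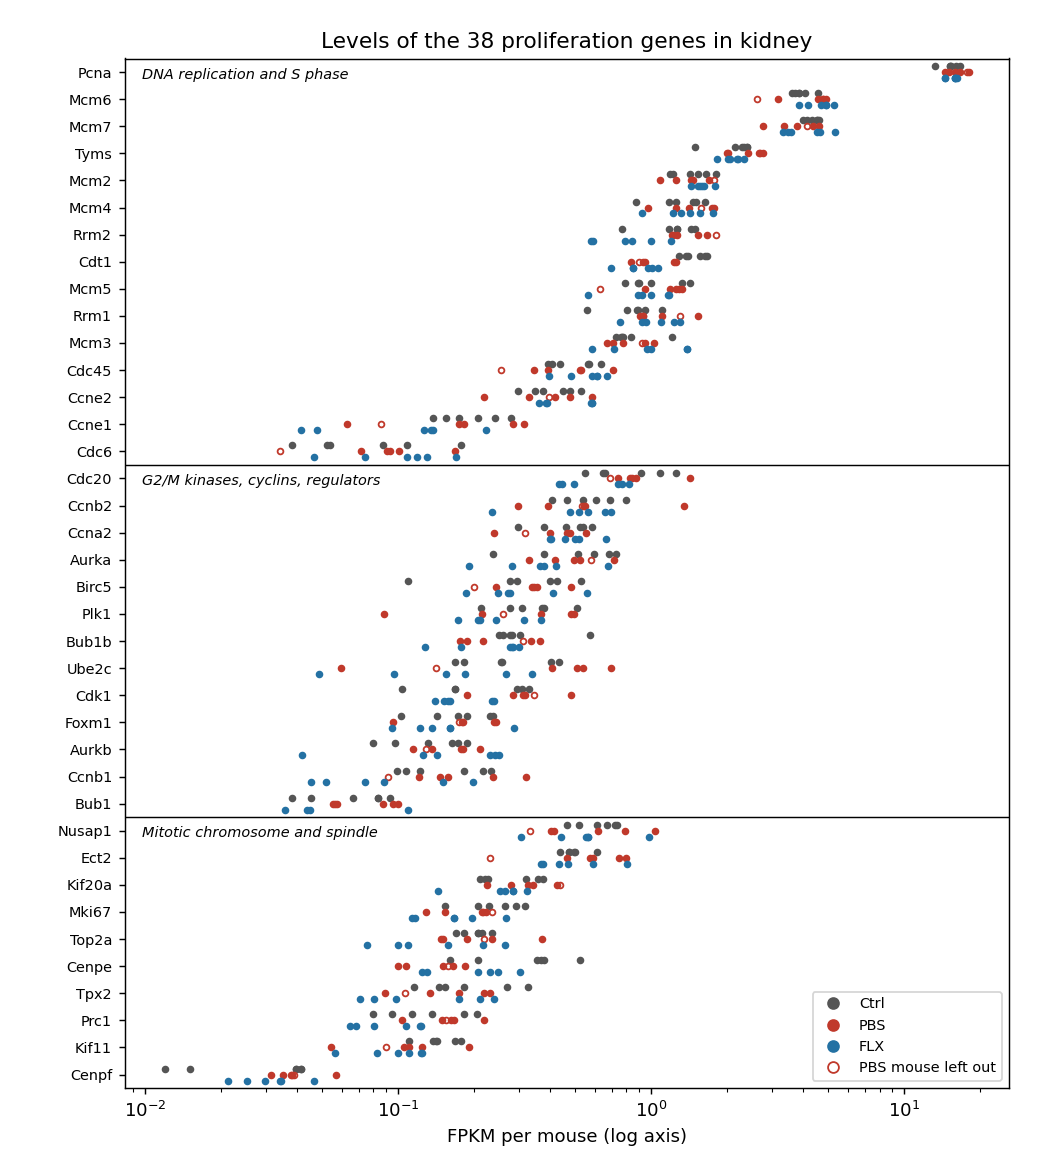
FPKM of each of the 38 members (rows, grouped by role and ordered by median) in 18 mice on a log axis, with Ctrl, PBS and FLX in separate colours and the PBS mouse left out as an open point. Replication genes from Pcna to Cdt1 have medians above 1 FPKM and the G2/M and mitotic genes lie below, while the 2 FLX mice listed at 0 for Bub1 cannot be drawn on this axis.

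In PBS versus Ctrl, 0 members were called higher and 1, the kinetochore motor Cenpe, was called lower. Its fold was the largest of the 38 in this comparison. At an adjusted p under 0.05 (edgeR's quasi-likelihood test, Benjamini-Hochberg over 20251 genes), 1 member was called in PBS versus Ctrl, and 3.81% of all genes tested were called. At an unadjusted p under 0.05, 2 members were lower (Cdt1 and Cenpe; background 8.76%) and 0 were higher (background 9.18%). By the study's rule, an unadjusted p under 0.05 and a log2 fold change beyond 1 in size, 1 member passed (Cenpe), against 3.28% of genes. The PBS and Ctrl mice did not overlap in FPKM for 1 member (Cdt1), against 3.52% of genes. Each of these shares was below the background. The median log2 fold change of the members was 0.09 (all genes -0.01), with 13 of 38 lower (34.2%, against 51.1% of all genes). It was 0.07 for replication genes, 0.11 for G2/M regulators and 0.10 for mitotic genes. The SE of the fold reached 0.72 for Bub1, so that changes in members of low level are not excluded.

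Cenpe (ENSMUSG00000045328, chr3:135212537-135273611, plus strand, GRCm38) encodes CENP-E, the motor that carries chromosomes to the spindle equator. Its levels were 0.160 to 0.522 FPKM in Ctrl (median 0.360), and the 5 PBS mice at 0.184, 0.151, 0.165, 0.108 and 0.10 FPKM. FLX mice lay at 0.124 to 0.303 FPKM (median 0.219). All PBS mice were below the Ctrl median, but Ctrl replicate 4 at 0.160 FPKM fell within the PBS range. Its level in PBS relative to Ctrl gave a log2 fold change of -1.21 ± 0.30 (SE; edgeR adjusted p = 0.0320). The call was lost without Ctrl replicate 2 (edgeR adjusted p = 0.0699), 5 (0.0654) or 6 (0.0712) and without PBS replicate 2 (0.0528), 4 (0.0882) or 5 (0.0718), while the fold stayed between -1.03 and -1.23 in these. It was also lost with no filter on low counts (edgeR adjusted p = 0.0521) and with limma on log2(FPKM + 0.1), + 1 and + 0.01 (adjusted p = 0.0570, 0.0553 and 0.0694). FLX mice were -0.74 ± 0.28 from Ctrl (edgeR adjusted p = 0.148) and 0.46 ± 0.30 from PBS (adjusted p = 0.630).

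Cdt1 (ENSMUSG00000006585, chr8:122568015-122573128, plus strand) encodes the factor that loads the Mcm2 to Mcm7 helicase onto origins. Ctrl mice lay at 1.29 to 1.66 FPKM (median 1.48), and the 5 PBS mice at 0.836, 0.931, 1.25, 1.23 and 0.948 FPKM. FLX mice lay at 0.697 to 1.07 FPKM (median 0.912). Every defeated mouse was below every Ctrl mouse, and the left-out mouse was at 0.895 FPKM. Fitted log2 folds were -0.51 ± 0.15 for PBS against Ctrl (edgeR adjusted p = 0.0663) and -0.79 ± 0.14 for FLX against Ctrl (adjusted p = 0.00644). The first passed 0.05 without Ctrl replicate 3 (adjusted p = 0.0389) and with all 6 PBS mice (adjusted p = 0.0349). The second was called in all 17 fits that left out a mouse, at adjusted p between 0.00300 and 0.0207, but not with FLX replicates 1 and 2 only (adjusted p = 0.291, fold -0.71). With those FLX mice alone only 4 of 21863 genes were called in FLX versus Ctrl, so that the lost call says little. FLX and PBS differed by -0.29 ± 0.15 (edgeR adjusted p = 0.511).

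Of the other replication genes in PBS versus Ctrl, folds lay between -0.21 for Mcm7 and 0.32 for Rrm1. Rrm1, the large subunit of ribonucleotide reductase, had the next smallest p. Values in Ctrl were 0.559 to 1.11 FPKM (median 0.886), the 5 PBS mice at 0.932, 0.928, 1.11, 0.905 and 1.53 FPKM, and FLX mice at 0.757 to 1.3 FPKM (median 1.03). Its groups overlapped, and the fold of 0.32 ± 0.16 did not pass the test (edgeR adjusted p = 0.298). The G2/M regulators ranged from -0.33 for the checkpoint kinase Bub1b to 0.66 for the ubiquitin-conjugating enzyme Ube2c. The mitotic genes other than Cenpe ranged from -0.38 for Mki67 to 0.36 for the cytokinesis factor Ect2. None of these passed the test in PBS versus Ctrl.

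**Figure D2:**
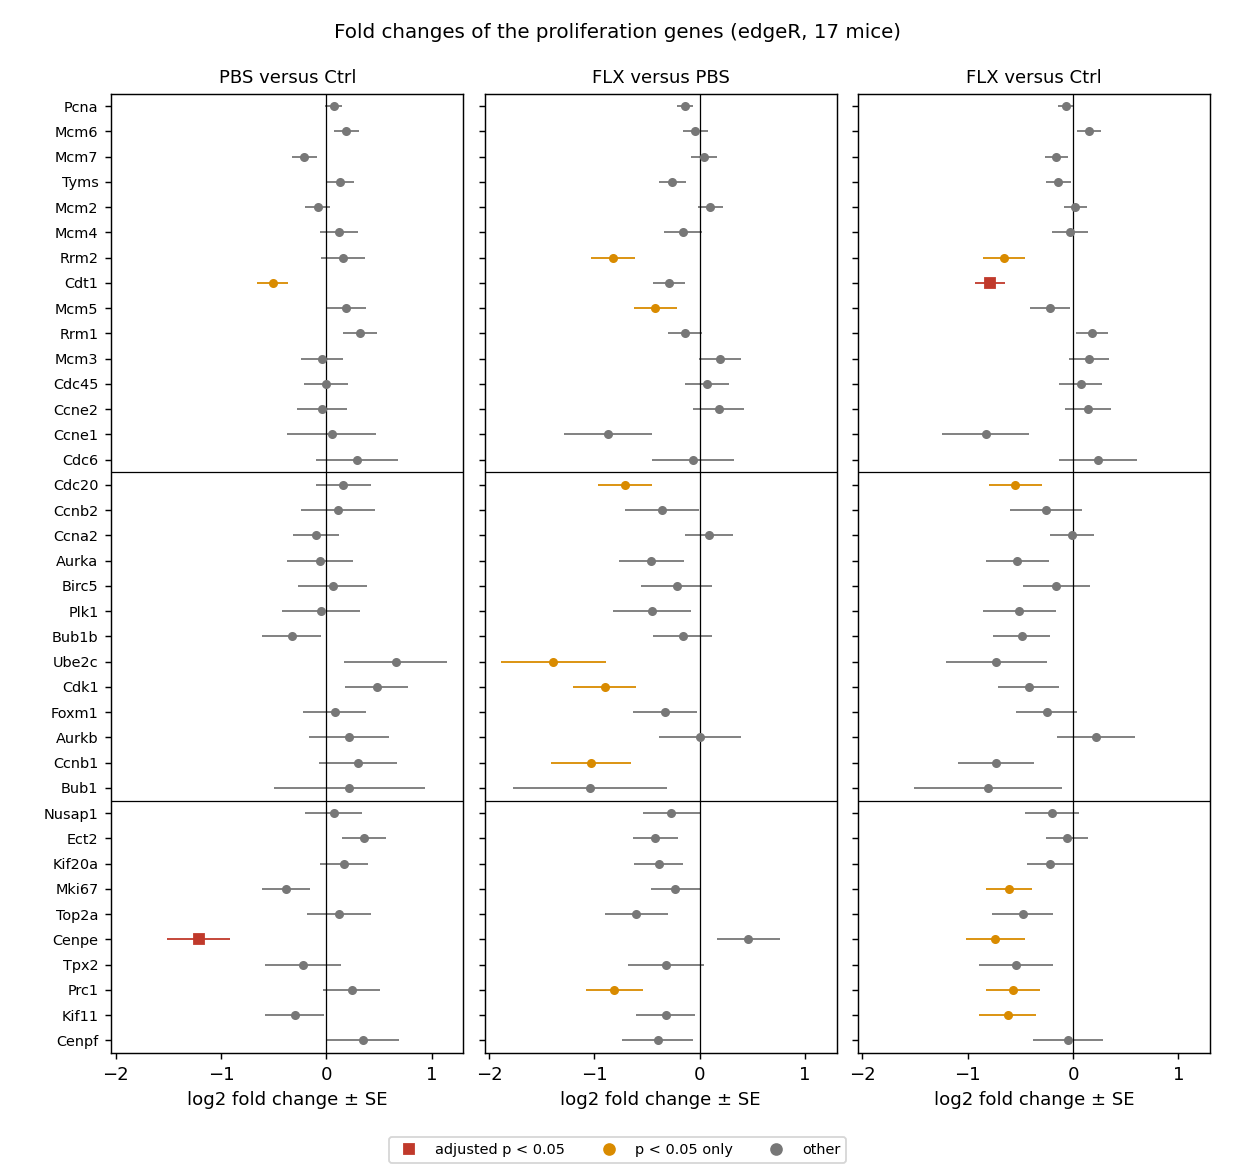
Log2 fold change ± SE of each of the 38 members in PBS versus Ctrl, FLX versus PBS and FLX versus Ctrl, from the edgeR fit over 17 mice, ordered as in the plot of levels. In the 2 FLX panels 30 of 38 points lie left of 0, and the 1 red square in each outer panel is Cenpe (-1.21) and Cdt1 (-0.79).

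Most G2/M and mitotic genes had a fitted fold below 0 in FLX versus PBS, although no single member passed the adjusted test. Of the 38 members, 30 had a fold below 0, and the median log2 fold change was -0.30, against 0 over all genes, of which 50.5% were below 0. The median was -0.45 for G2/M regulators (11 of 13 below 0), -0.35 for mitotic genes (9 of 10) and -0.14 for replication genes (10 of 15). At an adjusted p under 0.05, 0 members were called by edgeR (background 0.726%). With limma 0 were called at each of 3 pseudocounts, where 242 to 255 of 20251 genes were. DESeq2 called 1 member, Rrm2, and 498 of 20251 genes. At an unadjusted p under 0.05, 7 members were lower (18.4% of 38; background 5.38%) and 0 were higher (background 5.76%). These 7 were Rrm2, Mcm5, Cdk1, Cdc20, Ube2c, Ccnb1 and Prc1. By the study's rule 2 passed, Ccnb1 and Ube2c (background 1.90%), and FLX and PBS mice did not overlap for 1, Rrm2 (background 2.92%). Members are not independent of each other, so that these shares are descriptions.

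The median of -0.30 depended on the mice and on the scale. With all 18 mice it was -0.25, with 28 of 38 members below 0. With only FLX replicates 1 and 2, which had totals like the other groups, it was -0.53. There 34 members were below 0 and 8 were lower at an unadjusted p under 0.05. Of the 20251 genes of the main fit, 10715 were below 0 and 689 were lower at that threshold there. On log2(FPKM + 0.1) the median of the members was -0.14 beside 0.08 over all genes, with 29 members below 0.

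Rrm2 (ENSMUSG00000020649, chr12:24708241-24714146, plus strand) encodes the S phase subunit of ribonucleotide reductase, which makes deoxynucleotides. Ctrl mice lay at 0.771 to 1.49 FPKM (median 1.27), the 5 PBS mice at 1.27, 1.53, 1.22, 1.67 and 1.21 FPKM, and FLX mice at 0.579 to 1.20 FPKM (median 0.816). The highest FLX mouse was at 1.20 and the lowest PBS mouse at 1.21 FPKM, so that the groups were separated by a narrow gap. The log2 fold change in FLX versus PBS was -0.82 ± 0.21 (edgeR adjusted p = 0.0881), with adjusted p between 0.0392 (without Ctrl replicate 3) and 0.250 over the fits that left out a mouse. In FLX versus Ctrl it was -0.66 ± 0.20 (adjusted p = 0.0784), and this passed 0.05 without Ctrl replicate 3 (adjusted p = 0.0120) or FLX replicate 3 (0.0334). PBS and Ctrl differed by 0.16 ± 0.21 (edgeR adjusted p = 0.758). Its partner Rrm1 was -0.14 ± 0.16 in FLX versus PBS (adjusted p = 0.827).

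Cdk1 (ENSMUSG00000019942, chr10:69335146-69352938, minus strand) encodes the kinase that drives entry into mitosis. Its levels in Ctrl were 0.104 to 0.330 FPKM (median 0.232), the 5 PBS mice at 0.484, 0.188, 0.284, 0.311 and 0.319 FPKM, and FLX mice at 0.140 to 0.240 FPKM (median 0.159). Of the PBS mice, 4 were above every FLX mouse and 1 was within their range. In FLX versus PBS its log2 fold change was -0.90 ± 0.30 (edgeR adjusted p = 0.204). In PBS versus Ctrl it was 0.48 ± 0.30 and in FLX versus Ctrl -0.42 ± 0.29, neither of which passed the test.

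The folds of the other G2/M regulators in FLX versus PBS did not pass the adjusted test. Ccnb1, cyclin B1, had 0.121 to 0.321 FPKM in PBS and 0.0455 to 0.198 FPKM in FLX, with 13 to 50 counts in FLX, and a log2 fold change of -1.03 ± 0.38 (edgeR adjusted p = 0.268). Ube2c, which with the anaphase-promoting complex marks cyclin B for destruction, had -1.39 ± 0.50 (adjusted p = 0.253), but PBS replicate 5 at 0.0596 FPKM lay among the FLX mice, at 0.0487 to 0.339 FPKM. Cdc20, the activator of that complex, had 0.738 to 1.43 FPKM in PBS and 0.433 to 0.817 FPKM in FLX, with a fold of -0.71 ± 0.26 (adjusted p = 0.257). Cyclin A2 (Ccna2, 0.09 ± 0.23) and Aurora B (Aurkb, 0 ± 0.39) were the G2/M regulators not below 0. Bub1 had -1.04 ± 0.73, the widest error of the 38, on 0 to 30 counts in FLX. The transcription factor Foxm1 had -0.33 ± 0.30, and Plk1, Aurka, Ccnb2, Birc5 and Bub1b lay between -0.16 and -0.46.

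Prc1 (ENSMUSG00000038943, chr7:80294450-80316259, plus strand) encodes a bundler of spindle microtubules needed for cytokinesis. In Ctrl it had 0.0795 to 0.205 FPKM (median 0.125), the 5 PBS mice at 0.218, 0.149, 0.166, 0.104 and 0.162 FPKM, and FLX mice at 0.0644 to 0.123 FPKM (median 0.0941). Only PBS replicate 4 fell within the FLX range. In FLX versus PBS its log2 fold change was -0.81 ± 0.27 (edgeR adjusted p = 0.206), and in FLX versus Ctrl it was -0.57 ± 0.26 (adjusted p = 0.222). The other mitotic genes lay between -0.60 for Top2a and -0.23 for Mki67 in FLX versus PBS, with Cenpe at 0.46 as the exception.

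**Figure D3:**
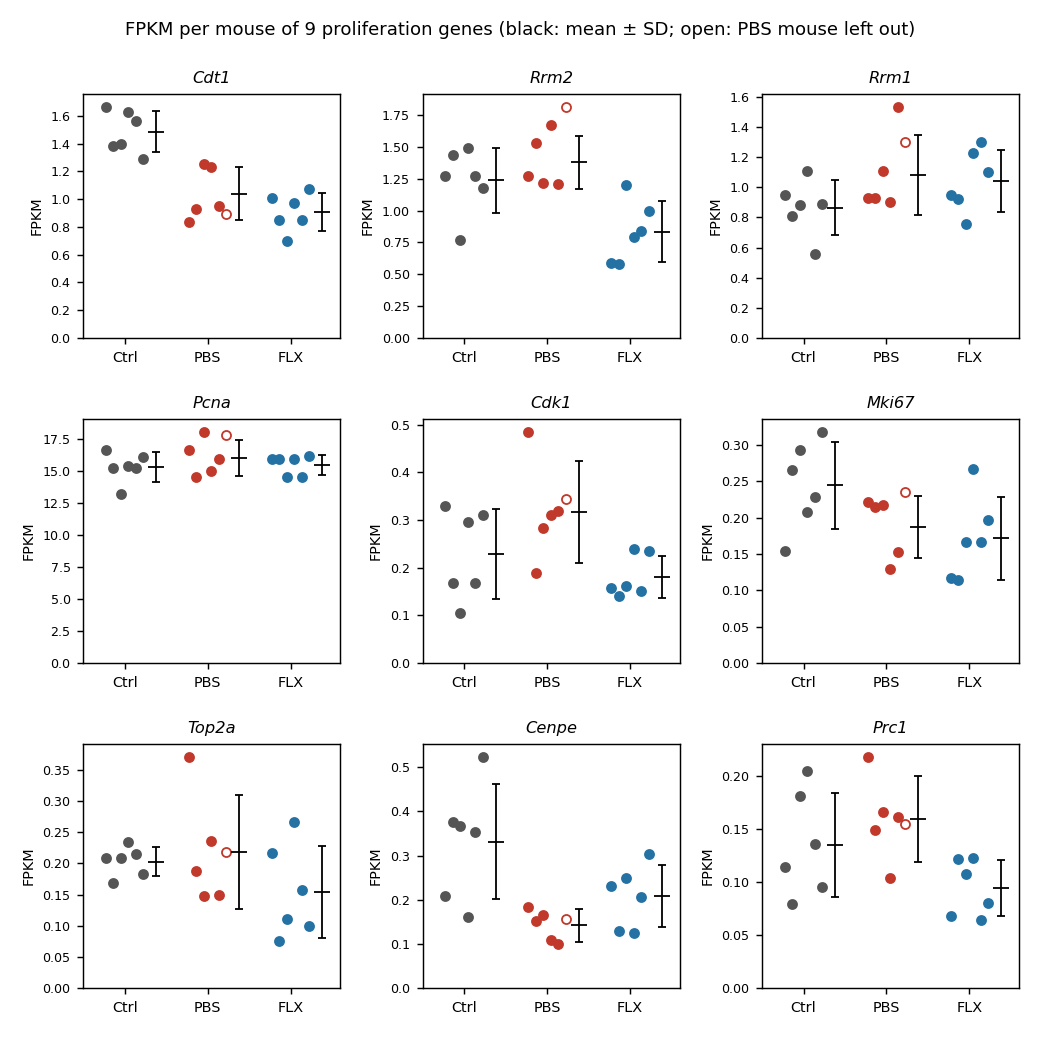
FPKM per mouse (linear axes from 0) of 9 members in Ctrl, PBS and FLX, with mean ± SD in black beside each group (6, 5 and 6 mice) and the PBS mouse left out as an open point. Cdt1 separates Ctrl (1.29 to 1.66 FPKM) from all defeated mice, Rrm2 separates PBS (from 1.21 FPKM) from FLX (up to 1.20 FPKM), and Pcna lies at 13.2 to 18 FPKM throughout.

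Most G2/M and mitotic genes also had a fold below 0 in FLX versus Ctrl, where the 1 member called was the replication gene Cdt1. The median log2 fold change was -0.24 (all genes -0.01), with 30 of 38 below 0, against 51.2% of all genes. It was -0.49 for G2/M regulators (12 of 13 below 0), -0.51 for mitotic genes (10 of 10) and -0.03 for replication genes (8 of 15). At an adjusted p under 0.05, 1 member was called (background 3.67%). At an unadjusted p under 0.05, 7 were lower (18.4% of 38; background 10.2%) and 0 were higher (background 10.2%). The 7 were Cdt1, Rrm2, Mki67, Cenpe, Kif11, Cdc20 and Prc1. By the study's rule 0 passed (background 2.24%), and FLX and Ctrl mice did not overlap for 1, Cdt1 (background 3.40%). FLX versus PBS and FLX versus Ctrl share the 6 FLX mice, so that the 2 counts are not independent. On log2(FPKM + 0.1), 3 members rather than 7 were lower and 1 was higher at an unadjusted p under 0.05. Without Ctrl replicate 4 the count of 7 was 4. The share of all genes at that threshold was not computed for these fits. At an adjusted p under 0.05 they called 1214 and 455 genes, against 744 in the main fit.

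Mki67 (ENSMUSG00000031004, chr7:135689784-135716361, minus strand) encodes Ki-67, the nuclear protein used to mark cycling cells. Ctrl mice lay at 0.154 to 0.317 FPKM (median 0.247), the 5 PBS mice at 0.222, 0.215, 0.217, 0.129 and 0.153 FPKM, and FLX mice at 0.114 to 0.267 FPKM (median 0.167). All groups overlapped. Its log2 folds were -0.61 ± 0.22 in FLX versus Ctrl (edgeR adjusted p = 0.128), -0.38 ± 0.23 in PBS versus Ctrl (adjusted p = 0.419) and -0.23 ± 0.23 in FLX versus PBS (adjusted p = 0.802).

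Top2a (chr11:98992943-99024189, minus strand) encodes the topoisomerase that untangles sister chromatids. Ctrl mice lay at 0.169 to 0.235 FPKM (median 0.208), the 5 PBS mice at 0.370, 0.188, 0.148, 0.236 and 0.150 FPKM, and FLX mice at 0.0757 to 0.266 FPKM (median 0.134). The spread was wider in PBS and FLX than in Ctrl, with SDs of 0.0921 and 0.0740 against 0.0235 FPKM. Its folds of 0.12 ± 0.30, -0.60 ± 0.30 and -0.48 ± 0.29 in PBS versus Ctrl, FLX versus PBS and FLX versus Ctrl did not pass the test (edgeR adjusted p = 0.876, 0.477 and 0.361), and the first was -0.16 without PBS replicate 1.

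Pcna (chr2:132249162-132253314, minus strand) had 13.2 to 16.6 FPKM in Ctrl (median 15.3), 16.6, 14.5, 18, 15.0 and 15.9 FPKM in the 5 PBS mice and 14.5 to 16.2 FPKM in FLX (median 15.9). Its folds of 0.07 ± 0.08, -0.14 ± 0.08 and -0.07 ± 0.07 had the smallest errors of the 38 (edgeR adjusted p = 0.703, 0.553 and 0.646), and the last was 0.02 on each log2 FPKM scale. The helicase subunits had log2 folds of at most 0.21 in size in PBS versus Ctrl and at most 0.22 in FLX versus Ctrl. Mcm5 was the exception in FLX versus PBS at -0.42 ± 0.20 (edgeR adjusted p = 0.434), where Mcm2, Mcm3, Mcm4, Mcm6 and Mcm7 had 0.10, 0.19, -0.16, -0.04 and 0.04. Cdc6 and Cdc45, which load and activate the helicase, were at -0.06 and 0.07 there. Of the E cyclins, Ccne1 had -0.87 ± 0.42 on 8 to 35 counts in FLX (edgeR adjusted p = 0.461) and Ccne2 had 0.18 ± 0.24. Tyms had -0.26 ± 0.13 (adjusted p = 0.468).

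Mice of 1 group differed from each other as much as the groups did. A count was made in each mouse of the members below their Ctrl median FPKM. It was 17, 28, 22, 8, 26 and 13 in Ctrl, 15, 21, 13, 22 and 20 in PBS, 25 in the left-out mouse and 28, 31, 28, 15, 22 and 22 in FLX. The groups overlapped, and FLX replicate 4 stood with the lower counts. Over all genes tested, 34.1% to 46.2% lay below the Ctrl median in FLX mice and 43.3% to 57.7% in PBS mice. The summed FPKM of the G2/M regulators was 3.45 to 5.75 in Ctrl, 3.90 to 6.84 in PBS and 2.68 to 4.70 in FLX. That of the mitotic genes was 2.38 to 3.11, 2.29 to 3.01 and 1.71 to 2.94, and that of the replication genes, of which Pcna made up the largest part, was 32.4 to 37.2, 34.3 to 40.4 and 33.3 to 37.7. Within groups, members did not move closely together: Pearson's r of deviations from the group mean over 17 mice had a median of 0.144 among replication genes, 0.222 among G2/M regulators and 0.171 among mitotic genes, as a description of genes that share libraries and depth. The highest pair was Rrm1 with Mcm3 (r = 0.796).

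**Figure D4:**
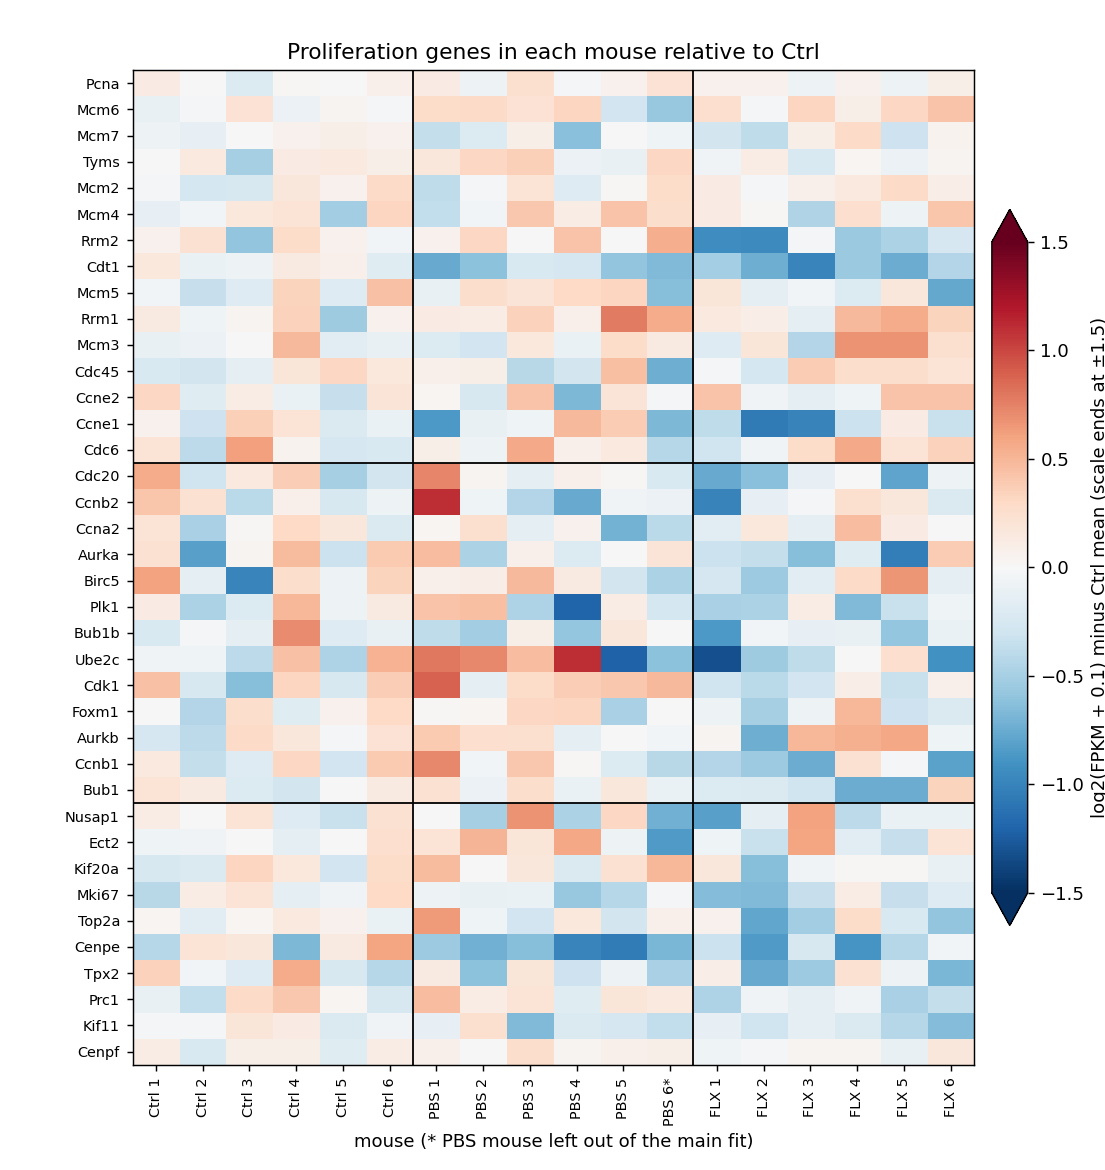
Difference of log2(FPKM + 0.1) from the Ctrl mean for each of 38 members (rows, by role) in each of 18 mice (columns; the asterisk marks the PBS mouse left out), with blue below and red above the Ctrl mean. FLX columns are bluer in the lower 2 blocks, Cdt1 is blue in all defeated mice, and Cenpe is blue in every PBS mouse.

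Other genes of the pathway were followed in lists, also chosen with earlier results of these data known. Of the CDK inhibitors, 6 of 7 were tested, and Cdkn1a and Cdkn1c were called higher in PBS versus Ctrl and Cdkn1a in FLX versus Ctrl, with 0 called lower. Of all genes tested, 3.81% and 3.67% were called in these comparisons, in either direction. Cdkn1a lay at 1.39 to 3.36 FPKM in Ctrl (median 2.00), at 10.8, 5.53, 13.6, 7.27 and 12.7 FPKM in the 5 PBS mice and at 4.17 to 8.81 FPKM in FLX (median 5.04). Every defeated mouse was above every Ctrl mouse, and the left-out mouse was highest at 34.2 FPKM. Its log2 folds were 2.21 ± 0.25 in PBS versus Ctrl (edgeR adjusted p = 0.000128), 1.29 ± 0.23 in FLX versus Ctrl (adjusted p = 0.00733, and 0.0537 with all 18 mice) and -0.93 ± 0.24 in FLX versus PBS (adjusted p = 0.0872). Cdkn1c (p57) rose by 0.46 ± 0.11 in PBS versus Ctrl (edgeR adjusted p = 0.0200), which was 0.0501 without PBS replicate 1. Cdkn1b, named after its values were seen, had -0.26 ± 0.11 in PBS versus Ctrl (edgeR adjusted p = 0.196).

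Among the D cyclins and G1 kinases, 1 of 6 was called higher in PBS versus Ctrl (background 3.81%, either direction). In FLX versus Ctrl 1 of 6 was called higher (background 3.67%). Ccnd1, the D cyclin of highest level and named after its values were seen, had -0.36 ± 0.13 in PBS versus Ctrl (edgeR adjusted p = 0.135). Ccnd3 rose by 0.38 ± 0.08 in PBS (edgeR adjusted p = 0.0136), from 7.36 to 9.75 FPKM in Ctrl to 10.4 to 11.2 FPKM, and all FLX mice were below all PBS mice at 8.70 to 9.63 FPKM (fold -0.32 ± 0.08, adjusted p = 0.0804). Ccnd2 was 0.72 ± 0.19 higher in FLX than in Ctrl (edgeR adjusted p = 0.0441), a call kept only without Ctrl replicate 3, PBS replicates 2, 3 or 5 or FLX replicates 1, 2 or 3 (7 of 17 fits that left out a mouse), at adjusted p up to 0.106 in the others and at 0.0617 with all 18 mice. Of the 19 pocket protein, E2F and MuvB genes, 2 were called higher in FLX versus Ctrl (background 3.67%, either direction), both repressor-type E2Fs. E2f6 had 0.38 ± 0.08 (adjusted p = 0.0165), with every FLX mouse (3.18 to 4.04 FPKM) above every Ctrl mouse (2.32 to 3.00 FPKM). E2f4, the DREAM subunit, had 0.34 ± 0.08 (edgeR adjusted p = 0.0332), lost without Ctrl replicates 1, 2, 4 or 5 or FLX replicates 1 or 5, with adjusted p up to 0.0839. No member of this list was called in the other comparisons.

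**Figure D5:**
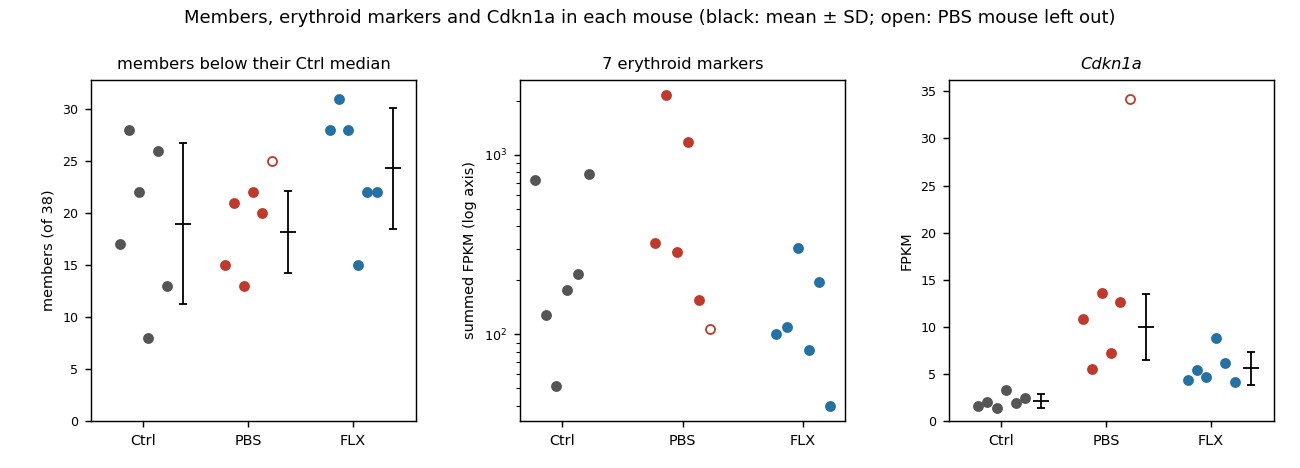
Per mouse in Ctrl, PBS and FLX, the number of the 38 members below their Ctrl median (left), the summed FPKM of 7 erythroid markers on a log axis (middle) and the FPKM of Cdkn1a (right), with mean ± SD in black where drawn and the PBS mouse left out as an open point. FLX mice reach 31 members and have at most 301 FPKM of erythroid markers, against up to 2150 FPKM in PBS, and Cdkn1a separates Ctrl mice (up to 3.36 FPKM) from all defeated mice.

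Of 10 p53 and target genes, Plk3, a stress-induced polo-like kinase, rose by 2.36 ± 0.48 in PBS versus Ctrl (edgeR adjusted p = 0.0103) and fell in FLX versus PBS (fold -2.21 ± 0.48, adjusted p = 0.0395). The second call was lost with all 18 mice (adjusted p = 0.0979) and without Ctrl replicate 5, PBS replicates 1 or 4 or any FLX replicate but 2, at adjusted p up to 0.134. Plk2 fell in FLX versus Ctrl (fold -0.66 ± 0.18, edgeR adjusted p = 0.0445) and kept this in 4 of 17 fits that left out a mouse, with adjusted p up to 0.106 in the 13 that lost it. Only the fits without Ctrl replicate 3 or PBS replicates 3, 4 or 5 kept it, and with all 18 mice the adjusted p was 0.0565.

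Between the lists of other S phase and other G2/M genes, the G2/M genes in FLX versus PBS most exceeded the background at an unadjusted p under 0.05. In PBS versus Ctrl these G2/M genes had 2 higher and 0 lower. Genes that oppose the cycle were lower too in FLX versus PBS. At that threshold 3 of 6 CDK inhibitors (median -0.29) and 5 of 10 p53 and target genes (median -0.21) were lower. In both lists 0 were higher, and 5.38% of all genes were lower. Of 25 other S phase genes, 20 were below 0 in FLX versus PBS (median -0.13, 2 lower at an unadjusted p under 0.05) and 22 in FLX versus Ctrl (median -0.19, 4 lower), against 13 in PBS versus Ctrl (median -0.05, 1 lower and 1 higher). Of 35 other G2/M genes, 29 were below 0 in FLX versus PBS (median -0.26, 7 lower at an unadjusted p under 0.05) and 24 in FLX versus Ctrl (median -0.15, 3 lower), against 17 in PBS versus Ctrl (median 0.02, 0 lower). The 2 higher in PBS versus Ctrl, named after their values were seen, were the mitotic kinase Melk (1.73 ± 0.57, edgeR adjusted p = 0.101) and the cytokinesis motor Kif23 (0.64 ± 0.26, adjusted p = 0.192). Of all genes tested, 8.76%, 5.38% and 10.2% were lower at that threshold in PBS versus Ctrl, FLX versus PBS and FLX versus Ctrl. In PBS versus Ctrl 9.18% were higher. The 2 of 35 G2/M genes higher there and the 3 of 35 lower in FLX versus Ctrl were below these shares. Folds below 0 made up 51.1%, 50.5% and 51.2% of all genes, in the same order of comparisons. Thymidine kinase Tk1, of the thymidine salvage route, had a log2 fold of -0.53 ± 0.14 in PBS versus Ctrl ( edgeR adjusted p = 0.0417) and of -0.51 ± 0.13 in FLX versus Ctrl (adjusted p = 0.0405). The first call held in 5 of 17 fits that left out a mouse (Ctrl replicates 3 or 6 or FLX replicates 2, 4 or 5) and the second in 8 (Ctrl replicates 3 or 6, FLX replicate 2 or any PBS replicate), and adjusted p reached 0.106 in both. The centromeric histone gene Cenpa fell by 0.69 in FLX versus Ctrl (SE 0.18, edgeR adjusted p = 0.0445), from 0.396 to 0.526 FPKM to 0.188 to 0.368 FPKM, a call kept only without Ctrl replicate 3, FLX replicate 3 or PBS replicates 1, 3 or 5 (5 of 17 such fits, adjusted p up to 0.103). With all 18 mice the adjusted p of Tk1 was 0.0569 and 0.183 and that of Cenpa 0.0744. With no filter on low counts the calls of Ccnd2, E2f4, Plk2, Tk1, Cenpa and, in FLX versus PBS, Plk3 were lost, at edgeR adjusted p between 0.0601 and 0.0731. With limma, those of Plk2 and Cenpa were lost at all 3 pseudocounts (adjusted p between 0.0514 and 0.0812), that of Tk1 in FLX versus Ctrl at 0.1 and 0.01 (0.0587 and 0.0580) and that of Ccnd2 at 1 (0.0531). With FLX replicates 1 and 2 only, each call of a list gene in the FLX comparisons was lost (edgeR adjusted p between 0.213 and 0.784), and that of Tk1 in PBS versus Ctrl was at 0.0589. That fit called only 4 of 21863 genes in FLX versus Ctrl and 0 in FLX versus PBS, so that these losses say little.

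Marker lists of cells differed in direction from each other. In FLX versus PBS, erythroid, neutrophil and lymph node markers had medians below 0, like most members. So had fat, adrenal and injured tubule markers, and those of kidney tubules and podocytes. Leukocyte, T and B cell, macrophage and endothelial markers had medians above 0. The median was -0.10 for proximal tubule (4 of 4 below 0) and -0.20 for loop and distal tubule (3 of 3). It was -0.15 for collecting duct (2 of 2) and -0.13 for podocytes (2 of 2). For proximal tubule the median was 0.01 with all 18 mice and -0.02 with FLX replicates 1 and 2 only, with 2 of 4 below 0 in each. Leukocyte and macrophage markers had -0.06 and -0.02 with FLX replicates 1 and 2 only. In bulk tissue, fewer cells of a type and less RNA per cell cannot be told apart. Of 7 erythroid markers, 6 were tested and all 6 were below 0 in FLX versus PBS (median -2.70, 6 at an unadjusted p under 0.05, Tfrc called) and in FLX versus Ctrl (median -1.42, 0 at an unadjusted p under 0.05), with a median of 1.27 in PBS versus Ctrl (1 at an unadjusted p under 0.05). Their summed level was 51.7 to 781 FPKM in Ctrl, 155 to 2150 in PBS and 40.1 to 301 in FLX. Globin genes carried this sum. Tfrc, the gene called and the 1 in PBS versus Ctrl, did not follow them in every mouse. Ctrl replicate 6 had 149 FPKM of Hba-a1, the highest in Ctrl, and 8.54 FPKM of Tfrc, the lowest. PBS replicate 3 had 35.8 FPKM of Hba-a1 and 33.6 FPKM of Tfrc, the highest in PBS. PBS replicate 5 was the lowest of the 5 PBS mice in both (25.0 and 10.3 FPKM). The call is therefore given for Tfrc only. Of 8 neutrophil markers, 4 were tested, with medians of 3.32 in PBS versus Ctrl (3 called), -2.67 in FLX versus PBS (1 called) and 0.51 in FLX versus Ctrl (0 called, 3 of 4 above 0), and summed levels of 1.03 to 3.09, 6.81 to 25.4 and 0.166 to 5.04 FPKM in Ctrl, PBS and FLX. Ly6g and Elane were at 0 in 14 mice each and Mpo was not analysed here. Leukocyte markers, with Ptprc (CD45) at 0.299 to 0.720 FPKM over 18 mice, had medians of -0.21, 0.18 and -0.06, and those of T and B cells -0.42, 0.24 and -0.24, in PBS versus Ctrl, FLX versus PBS and FLX versus Ctrl. Lymph node and thymus markers had 0.19, -1.39 and -1.08, with summed levels of at most 0.563 FPKM in any mouse. Of these 4, 2 were lower in FLX versus PBS at an unadjusted p under 0.05. Rag1 was called lower in FLX versus Ctrl, at 0 to 0.00658 FPKM against 0.00330 to 0.0507 FPKM. Macrophage markers had -0.11, 0.23 and 0.11, endothelial markers 0.02, 0.25 and 0.19, injured tubule markers 0.85, -0.24 and 0.66, fat markers 2.62, -0.41 and 2.22, and the 1 adrenal marker tested 0.53, -0.38 and 0.15. Among injured tubule markers, Vcam1 was called higher in FLX versus Ctrl, at 1.21 to 2.95 FPKM against 0.631 to 1.21 FPKM. The part of these cells in the values of the proliferation genes was not tested.

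Other transcripts can share reads with some members. Of the 38, 24 had no other named gene of the table inside their span, 13 had one on the other strand, Cdc20 and Prc1 among them, and 3 had one on the same strand. Pseudogenes named after Ccnb1, Ccnb2, Pcna and Tyms are in the table, so that reads may be split there. The libraries mark strand, and the sources used here do not say whether counting used it.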

How the data were processed

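Kidney poly(A) RNA of 18 mice was sequenced in read pairs. Per the study's methods, reads were cleaned with fastp, aligned to GRCm38 with HISAT-3N and assembled with StringTie; the submitters' processing notes name cutadapt 1.9, HISAT2 2.0.4, UMI-tools, StringTie 1.3.4d, DESeq2 and edgeR. For every gene in each mouse the authors deposited FPKM along with an estimated count. No source used here names the counting tool. Although whole, the estimated counts were uneven: 4 counts were found in 720 genes of a typical mouse (median), 3 in 484.5 and 5 in 268. They were therefore treated as estimates and not as single fragments.

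Counts were tested with edgeR 4.0.16 (R 4.3.3; filterByExpr, TMM, quasi-likelihood, two-sided, Benjamini-Hochberg) in 1 model over 17 mice and 3 groups. The fit was tested on simulated data first. Levels are FPKM, with SD over mice. Each sample is labelled as 1 mouse of its group. Alternatives were upper-quartile and RLE scaling, DESeq2 1.42.0, no filter, limma 3.58.1 on log2(FPKM + 0.1), + 1 and + 0.01, all 18 mice, FLX replicates 1 and 2 only, a replicate block and leaving out each mouse. Full values are given for members called, for the 3 with the smallest p in each comparison and always for Mki67, Top2a and Pcna, and for called genes of the other lists; members in between were named after their values were seen. The members and lists were chosen with earlier results of these data known. No libraries held identical values.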

Additional observations from a re-analysis of the deposited data

Results flagged for a closer look

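In 9 of 114 sets of values (38 members in 3 groups) the highest or lowest mouse lay far from the rest of its group by Dixon's criterion, where chance gives about 1 in 20 sets. PBS replicate 1 stood high for Ccnb2, at 1.35 FPKM against 0.298 to 0.548 in the other 4 PBS mice, and for Cdc20, at 1.43 against 0.738 to 0.869 FPKM. Ctrl replicate 4 stood high for Mcm3, at 1.21 against 0.729 to 0.834 FPKM, and for Bub1b, at 0.574 against 0.251 to 0.303 FPKM. Tyms was low in Ctrl replicate 3, at 1.49 against 2.15 to 2.39 FPKM, and Ect2 was high in Ctrl replicate 6, at 0.613 against 0.438 to 0.502 FPKM. Mcm6 was low in PBS replicate 5, at 3.19 against 4.56 to 4.93 FPKM, and Cenpf was high in PBS replicate 3, at 0.0568 against 0.0314 to 0.0380 FPKM. Foxm1 was high in FLX replicate 4, at 0.287 against 0.0948 to 0.161 FPKM, the FLX mouse with the fewest members below their Ctrl median (15).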

How the results depend on the processing

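Members called lower in PBS versus Ctrl numbered 1, but 2 with upper-quartile scaling, DESeq2 or all 6 PBS mice, and 0 with no filter or limma at a pseudocount of 0.1 or 0.01; with limma at 1 the 1 called was Cdt1 (adjusted p = 0.0358) in place of Cenpe (0.0553); members higher at an unadjusted p under 0.05 numbered 1 rather than 0 with all 6 PBS mice. In FLX versus PBS, DESeq2 called 1 member rather than 0, and the median of -0.30 was -0.14, -0.04 and -0.18 with limma at pseudocounts of 0.1, 1 and 0.01 and -0.53 with FLX replicates 1 and 2 only. In FLX versus Ctrl, DESeq2 called 2 members rather than 1 and FLX replicates 1 and 2 only called 0; limma at 0.1, 1 and 0.01 gave 3, 4 and 3 lower and 1, 1 and 1 higher at an unadjusted p under 0.05 rather than 7 and 0; and the median of -0.24 was -0.05 with limma at 1 and -0.53 with FLX replicates 1 and 2 only. The fold of Pcna in FLX versus Ctrl turned to 0.02 with limma at each pseudocount and with FLX replicates 1 and 2 only. A larger pseudocount shrinks folds of genes this low by construction. At 0.01 the median in FLX versus PBS was -0.18, and all genes had a median of 0.084 there, against -0.003 in the main fit. Fewer mice leave less power. The causes of these shifts were not tested. Among fits of named genes under these settings, 46 lost a call, 6 gained one and 5 changed sign. Calls over all genes, 772, 147 and 744 in PBS versus Ctrl, FLX versus PBS and FLX versus Ctrl, ranged over all settings from 388 to 1662, 0 to 498 and 4 to 3099. With DESeq2 they were 1424, 498 and 1645. In FLX versus Ctrl they were 1214, 1197 and 1165 with limma at 0.1, 1 and 0.01. Shares of all genes at an unadjusted p under 0.05 were computed only for the main fit and for FLX replicates 1 and 2 only. Counts of members at that threshold under other settings, and without 1 mouse, therefore have no background beside them.

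Leaving out 1 mouse at a time gave, in PBS versus Ctrl, 0 to 2 members called lower, 0 to 3 higher and 2 to 3 lower at an unadjusted p under 0.05, and medians of 0.04 to 0.16; the 3 arose without PBS replicate 5. In FLX versus PBS it gave 0 to 1 called lower, 6 to 9 lower at an unadjusted p under 0.05 and medians of -0.34 to -0.22, and in FLX versus Ctrl 1 to 2, 4 to 10 and -0.31 to -0.15. In these fits 0 members were called higher in any comparison. The fold of Top2a in PBS versus Ctrl was -0.16 to 0.24, with -0.16 without PBS replicate 1.

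Mice share replicate numbers across groups, but only 2 of 16 same-numbered pairs deviated together (r over 0.1; range -0.205 to 0.227), and no label ties the numbers to an animal or day, so the numbers were not taken to pair mice. With the replicate block, members called lower in PBS versus Ctrl numbered 0 and those higher at an unadjusted p under 0.05 numbered 1, Cenpe had -1.02 (edgeR adjusted p = 0.0594) and Top2a -0.03. The calls of Ccnd3 in PBS versus Ctrl (adjusted p = 0.0580), of Plk3 in FLX versus PBS, of Ccnd2, E2f4, Plk2 and Cenpa in FLX versus Ctrl and both of Tk1 were also lost with the block, at adjusted p up to 0.0961. Low counts limit the G2/M and mitotic genes most, above all in the 4 FLX mice of lower depth.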
